A study of Mus musculus with 8 samples.

Results

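The genes described here encode enzymes that interconvert proline, alanine, aspartate, ornithine and glutamate: Aldh18a1, Pycr1, Oat, Prodh, Glud1, Gpt2, Got1 and Got2. They were taken by symbol from the deposited gene table, and all 8 of the 8 listed genes were found among its 35072 genes. They were chosen by pathway with their measured formate-against-PBS differences already known, also per pair of neighbouring libraries, so those differences are given as descriptions without a test. RNA was sequenced from wildtype mouse CD8 T cells of spleen and lymph nodes. Naive cells were activated through CD3 and CD28 by antibodies, in the presence of IL-12, over 18 h. A further 24 h followed with PBS as vehicle (4 libraries) or with 2 mM formate (4 libraries). The labels do not say whether the 4 libraries of a group came from separate animals or cultures, nor the age of the mice.

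Glutamate stands at the centre of this network. The bifunctional enzyme encoded by Aldh18a1 reduces glutamate towards proline in mitochondria, Pycr1 encodes the mitochondrial reductase that completes proline, and Prodh encodes the oxidase that starts its breakdown. Oat encodes ornithine aminotransferase, which links ornithine to the same intermediate. Glud1 encodes glutamate dehydrogenase, Gpt2 the mitochondrial alanine aminotransferase, and Got1 and Got2 the cytosolic and mitochondrial aspartate aminotransferases of the malate-aspartate shuttle. Activated T cells are known to take up glutamine and to use the glutamate made from it for these reactions. Pycr1, Aldh18a1 and Gpt2 are known targets of ATF4, the transcription factor of the amino acid response.

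Titles carry codes that run in neighbours, each pair with 1 PBS and 1 formate library: 1 and 2, 7 and 8, 10 and 11, 13 and 14. No label states that neighbours belong together, and formate differences are therefore given both over the groups (the unpaired fit) and within neighbours (the fit with pairs as a block). Libraries of codes 1 to 8 and of codes 10 to 14 fall on opposite sides of the first principal component of all tested genes. This component holds 51.2% of the variance. Scores were graded within each side, at 44.4, 35.3, 26.5 and 18.2 for codes 1, 2, 7 and 8. Codes 10, 11, 13 and 14 had -47.0, -43.5, -12.8 and -21.0. The split by sign is used below. No label calls it a batch. Library totals ran from 29361986 to 41393093 estimated counts. The cells carried the labelled identity: Cd8a was at 463 to 612 CPM (TMM-scaled counts relative to library size) and Cd3e at 165 to 197, while Cd4 was at 3.23 to 7.60 and the NK cell gene Ncr1 and the macrophage gene Adgre1 at no more than 0.0660 and 0.132, with 0 in some libraries. Of 8 summed measures (7 marker lists and the mitochondrial share of counts), none passed between the groups (smallest exact permutation p = 0.0571, adjusted 0.457, two-sided, n = 4 against 4; the smallest p this test allows is 0.0286). In bulk RNA, a change in the number of cells of a type and a change in RNA per cell cannot be told apart.

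Per transcript length, the 8 genes fell into an abundant and a scarce group. Got2 had 217 ± 29.4 CPM per kb (SD over all 8 libraries), Glud1 203 ± 15.8, Aldh18a1 133 ± 14.1, Got1 92.9 ± 8.82 and Oat 91.7 ± 8.83. Gpt2 had 21.99 ± 8.26 CPM per kb, Pycr1 10.4 ± 4.71 and Prodh 1.14 ± 0.269. Got2 and Glud1 overlapped in their ranges, as did Got1 and Oat, and Gpt2 overlapped with Pycr1. The order was the same when the longest annotated transcript was used in place of the mean length, although each value was then lower. Prodh, the one breakdown enzyme of proline among them, rested on 32 to 79 counts per library, whereas Pycr1 had 149 to 641 and Got2 7822 to 14291.

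**Figure D1:**
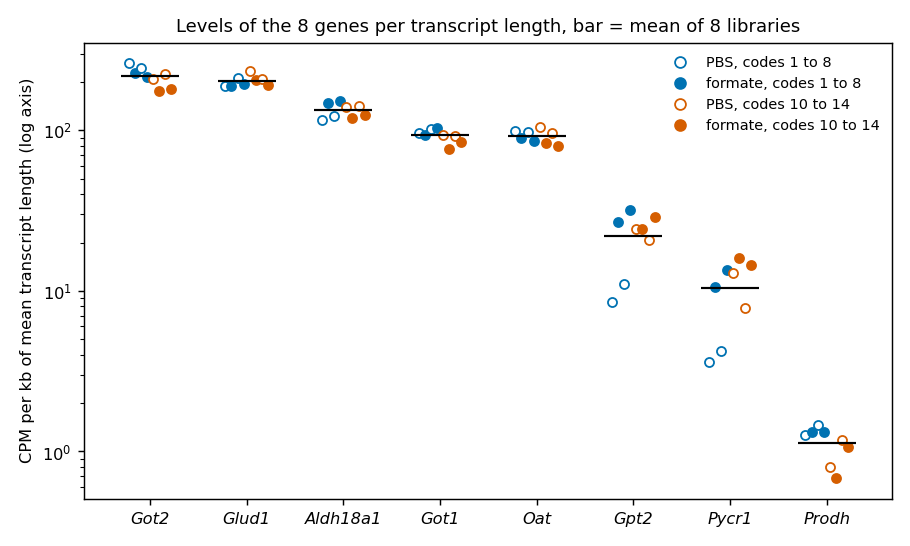
TMM-normalised CPM per kb of mean annotated transcript length (log axis) for each of the 8 genes, with 1 point per library (open, PBS; filled, formate; colour, set of title codes) and a bar at the mean of 8 libraries. Means run from 217 for Got2 to 1.14 for Prodh, and Gpt2 and Pycr1 show the widest spread, with the PBS libraries of codes 1 and 7 lowest.

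The promoter windows of 4 of the genes are shown because the formate differences of 3 of them (Pycr1, Gpt2 and Aldh18a1) varied most between the sets, and Got1 holds the same 8-base motif as Pycr1. Each window covers 250 bases before and 50 after the RefSeq transcript start (build GRCm38.p6), printed 5′ to 3′ on the strand of the gene. Capitals mark matches on either strand to TGATGNAA, the core of the composite C/EBP-ATF element, or to CACGTG, the E-box bound by the MYC and MAX family; the motifs do not overlap in any of the windows shown. The windows lie at chr11:120643699-120643998 (minus strand) for Pycr1, chr8:85492326-85492625 (plus) for Gpt2, chr19:40588414-40588713 (minus) for Aldh18a1 and chr19:43524556-43524855 (minus) for Got1.
Pycr1: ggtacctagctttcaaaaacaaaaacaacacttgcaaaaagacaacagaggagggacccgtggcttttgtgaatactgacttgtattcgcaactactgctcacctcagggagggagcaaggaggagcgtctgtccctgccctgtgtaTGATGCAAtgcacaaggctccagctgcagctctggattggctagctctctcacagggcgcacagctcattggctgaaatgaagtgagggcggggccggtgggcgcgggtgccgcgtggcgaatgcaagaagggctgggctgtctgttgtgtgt
Gpt2: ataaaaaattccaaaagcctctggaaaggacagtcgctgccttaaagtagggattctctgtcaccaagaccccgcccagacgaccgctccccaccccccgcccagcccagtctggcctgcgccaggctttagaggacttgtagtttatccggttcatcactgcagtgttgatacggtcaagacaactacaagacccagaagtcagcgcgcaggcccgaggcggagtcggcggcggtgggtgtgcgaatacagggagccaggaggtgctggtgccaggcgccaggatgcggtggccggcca
Aldh18a1: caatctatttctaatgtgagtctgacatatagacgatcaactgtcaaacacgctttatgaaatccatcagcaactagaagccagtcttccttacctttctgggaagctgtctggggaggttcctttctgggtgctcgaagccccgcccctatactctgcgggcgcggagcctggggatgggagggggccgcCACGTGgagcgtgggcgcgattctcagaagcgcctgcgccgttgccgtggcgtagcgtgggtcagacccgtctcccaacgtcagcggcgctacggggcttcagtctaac
Got1: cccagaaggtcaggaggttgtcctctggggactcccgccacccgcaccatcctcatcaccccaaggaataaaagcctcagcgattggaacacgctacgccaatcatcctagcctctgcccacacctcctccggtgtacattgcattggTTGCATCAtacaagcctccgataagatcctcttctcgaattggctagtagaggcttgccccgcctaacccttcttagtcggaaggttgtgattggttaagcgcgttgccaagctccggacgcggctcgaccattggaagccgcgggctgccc

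Counted from the 5′ end of the window, Pycr1 holds TGATGCAA at bases 148 to 155, and Got1 holds the same element on the other strand, read here as TTGCATCA, at bases 149 to 156. Aldh18a1 holds CACGTG at bases 192 to 197. Gpt2 and the other 4 genes held neither motif in these windows, which says only that these letters are not in them. Of 32851 windows in the table, 3.97% held TGATGNAA and 7.15% held CACGTG. Among a list of 24 ATF4 pathway genes, 20 had a window and 7 of these held TGATGNAA. A match describes the sequence and is not evidence of a bound site.

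Pycr1, the final enzyme of proline synthesis, was higher with formate in each of the 4 pairs, by amounts that differed between the sets of libraries. The gene (ENSMUSG00000025140, chromosome 11 from 120635712 to 120643769, GRCm38) had 4.27 and 5.03 CPM in the PBS libraries of codes 1 and 7, and 12.6 and 16.1 in the formate libraries of codes 2 and 8. In the other set the PBS libraries of codes 10 and 13 had 15.4 and 9.31 CPM, and the formate libraries of codes 11 and 14 had 18.9 and 17.2. The groups overlapped only because the PBS library of code 10 lay above the formate library of code 2. Formate-to-PBS ratios were 2.94 and 3.21 in the pairs of the first set (starting with codes 1 and 7), and 1.23 and 1.85 in those of the other set (codes 10 and 13). Over the groups, Pycr1 went from 8.51 ± 5.12 to 16.2 ± 2.70 CPM (SD, n = 4), a log2 change of 0.93 (SE 0.38) unpaired and 1.05 (SE 0.30) with pairs as a block.

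Gpt2, which moves nitrogen between glutamate and alanine, had the second widest spread over libraries. The gene (ENSMUSG00000031700, chromosome 8 from 85492576 to 85527560) was at 14.8 and 19.1 CPM in the PBS libraries of codes 1 and 7 and at 46.4 and 55.2 in the formate libraries beside them, ratios of 3.14 and 2.89. In codes 10 and 11 it was at 42.3 CPM in both libraries, a ratio of 0.999, and in codes 13 and 14 it went from 36.2 to 50.1, a ratio of 1.38. The 4 formate libraries lay between 42.3 and 55.2 CPM in either set, whereas the PBS mean was 16.9 CPM in codes 1 to 8 and 39.3 in codes 10 to 14, a ratio of 2.32. For Pycr1 the PBS mean of codes 10 to 14 was likewise 2.66 times that of codes 1 to 8, and the formate mean 1.26 times. Over the groups, Gpt2 went from 28.1 ± 13.3 to 48.5 ± 5.49 CPM (log2 change 0.79, SE 0.31, unpaired; 0.88, SE 0.40, with the block).

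Aldh18a1, the entry enzyme of proline synthesis, differed in direction between the sets. The gene (ENSMUSG00000025007, chromosome 19 from 40550257 to 40588463) was at 172 and 181 CPM with PBS and 219 and 225 CPM with formate in codes 1 to 8. In codes 10 to 14 it was at 205 and 207 CPM with PBS and 175 and 183 CPM with formate. Every formate library lay above every PBS library in the first set, and every one lay below in the other. The log2 differences were 0.35 and 0.31 in the first set and -0.23 and -0.18 in the other, and over the groups they cancelled to 0.07 (SE 0.11). Higher in both pairs of codes 1 to 8 and lower in both of codes 10 to 14 held for 1 of the 8 enzymes and for 4.68% of all 13299 tested genes.

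**Figure D2:**
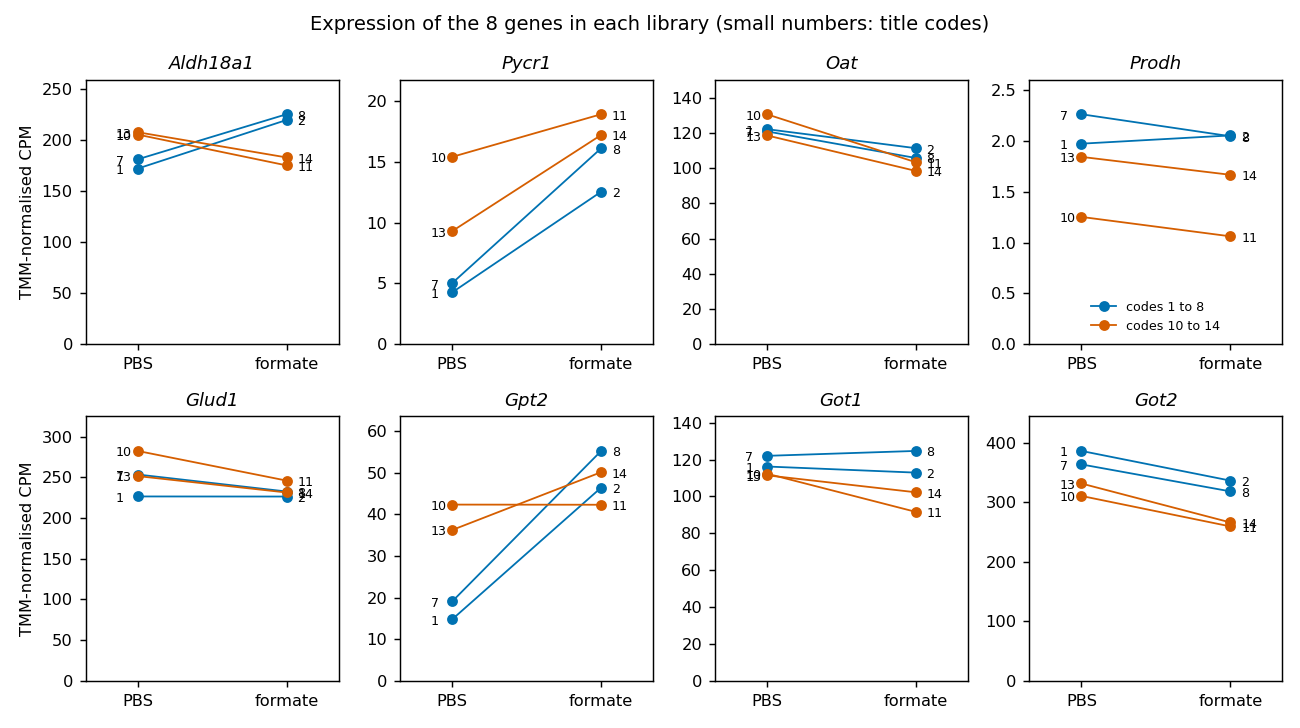
TMM-normalised CPM of each of the 8 genes in every library, PBS on the left and formate on the right of each panel, with lines joining neighbouring title codes (blue, codes 1 to 8; orange, codes 10 to 14) and axes that start at 0. Lines for Pycr1 and Gpt2 are steep in codes 1 to 8 and start higher in codes 10 to 14, lines for Aldh18a1 cross, and all 4 lines for Oat and Got2 go down.

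Oat, ornithine aminotransferase, was the 1 gene of the 8 whose groups did not overlap, with formate lower. Groups did not overlap for 4.29% of tested genes (1.85% with formate lower and 2.44% with formate higher). The gene (ENSMUSG00000030934, chromosome 7 from 132557478 to 132576398) had 122, 121, 131 and 119 CPM in the PBS libraries of codes 1, 7, 10 and 13, and 111, 106, 103 and 98.5 CPM in the formate libraries of codes 2, 8, 11 and 14. All formate libraries lay below all PBS libraries. Its mean went from 123 ± 5.25 to 105 ± 5.37 CPM (SD, n = 4), a log2 change of -0.23 (SE 0.08 unpaired, 0.05 with the block).

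Got2, the mitochondrial aspartate aminotransferase, was lower in each pair by a similar amount. The gene (ENSMUSG00000031672, chromosome 8 from 95864134 to 95888547) had 386, 364, 311 and 332 CPM with PBS and 336, 318, 259 and 266 CPM with formate, in the order of the codes above. Levels were lower in codes 10 to 14 than in codes 1 to 8 in either group, so the groups overlapped although each formate library lay below its neighbour. The log2 differences of the pairs were -0.20, -0.19, -0.26 and -0.32, and the change over the groups was -0.24 (SE 0.12 unpaired, 0.04 with the block). The processed copy Got2-ps1 had at most 0.495 CPM in any library and Glud-ps at most 0.0332, so few reads were assigned to these copies of Got2 and Glud1.

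Got1, the cytosolic counterpart of Got2, had 116, 122, 112 and 111 CPM with PBS and 113, 125, 91.6 and 102 CPM with formate. The gene (ENSMUSG00000025190, chromosome 19 from 43499752 to 43524605) was within 0.05 log2 units of its neighbour in both pairs of codes 1 to 8 (-0.04 and 0.03) and lower in the others (-0.29 and -0.12). Its change over the groups was -0.10 (SE 0.10).

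Glud1, glutamate dehydrogenase, varied least of the 8 genes over the libraries. The gene (ENSMUSG00000021794, chromosome 14 from 34310727 to 34345265) had 227, 253, 282 and 252 CPM with PBS and 226, 233, 246 and 231 CPM with formate, with a change of -0.11 (SE 0.09). Codes 1 and 2 were level, and the other 3 pairs were lower with formate by 0.12 to 0.20 log2 units.

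Prodh, proline dehydrogenase (ENSMUSG00000003526, chromosome 16 from 18060357 to 18090203), had 1.97, 2.26, 1.25 and 1.84 CPM with PBS and 2.05, 2.05, 1.06 and 1.67 CPM with formate. The change was -0.10 (SE 0.28) unpaired and -0.11 (SE 0.19) with the block. It was smaller than its error in both fits, and no difference was detected. Levels were lowest in codes 10 and 11 in either group.

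**Figure D3:**
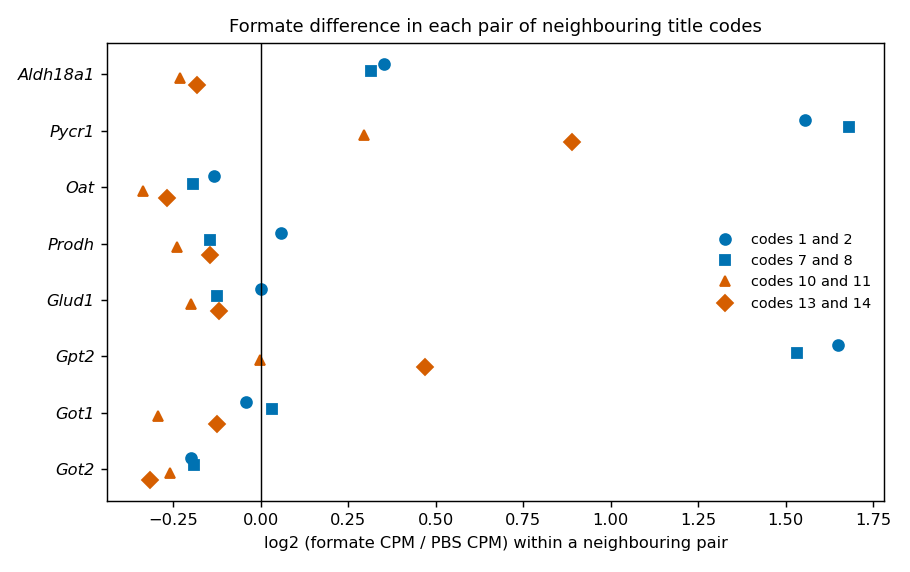
Log2 ratio of formate to PBS CPM within each pair of neighbouring title codes for the 8 genes (1 marker per pair; blue, codes 1 to 8; orange, codes 10 to 14; vertical line, no difference). Pycr1 is right of the line in all 4 pairs, Oat and Got2 are left of it in all 4, and Aldh18a1 has 0.35 and 0.31 in one set and -0.23 and -0.18 in the other.

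Among all genes, the unpaired edgeR fit called 1 of 13299 (0.00752%) and none of the 8 enzymes. In that fit 3 of the 8 and 634 of all 13299 had a raw p under 0.05. Unpaired DESeq2 called none of the 8 and 21 of all tested genes. With the pairs as a block, edgeR called 12.9% of all genes (5.35% higher, 7.52% lower), and among the 8 enzymes it called Oat and Got2, both lower (DESeq2 with the block called 3, adding Pycr1). The split over all genes depended on the scaling: 712 higher and 1000 lower with TMM, 1048 and 538 with library size only, 832 and 736 with upper quartile scaling, 492 and 1081 with DESeq2, and 529 and 784 with GC offsets. The counts of members describe genes that were chosen with the same contrast in view, and nothing is read from them. All 8 had passed the filter on low counts. Lower in all 4 pairs held for 3 of the 8 (Oat, Got2 and, with a difference of -0.0007 for codes 1 and 2, Glud1), against 19.5% of tested genes, and higher in all 4 pairs for 1, against 16.0%. The median log2 change with the block was -0.11 over the 8 genes and -0.003 over all tested genes. The mitochondrial share of counts was also higher with formate in 4 of 4 pairs, at 0.414% to 0.566% with PBS and 0.560% to 0.906% with formate (exact permutation p = 0.0571, n = 4), and its part in the lower Oat and Got2 values was not tested.

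The formate difference was more positive in codes 1 to 8 than in codes 10 to 14 for 8 of the 8 enzymes, where 57.0% of tested genes did the same. The interaction of formate with the set of libraries (change in codes 10 to 14 minus that in codes 1 to 8) was -1.36 for Gpt2 (SE 0.15 with the block), -1.03 for Pycr1 (SE 0.20) and -0.54 for Aldh18a1 (SE 0.08). It lay between -0.20 and -0.09 for the other 5. Without the block, edgeR called 0 of 13299 interactions (154 with a raw p under 0.05). With the block it called 9 (0.0677%), each more negative in codes 10 to 14, and 2 of them were Gpt2 and Aldh18a1; Pycr1 was not called. The Aldh18a1 call was lost with RLE size factors. The split by code and the pair-wise contrast were known when the genes were chosen, so these values too are descriptions. What differs between the sets is not given in the labels. Some marker sums moved with the set. The CD4 T list (5 of 5 genes found) had means of 76.2 CPM in codes 1 to 8 and 323 in the others. Within it, Cd4 had at most 7.60 CPM in any library and Foxp3 at most 2.11. The NK list (5 of 5) had 78.4 and 49.1, with Ncr1 at most 0.0660 and Klrb1c at most 0.0569. The rest of each sum came from the other listed genes, whose separate values are not given here. These are Ctla4, Cd40lg and Zbtb7b in the CD4 T list and Klrc2, Eomes and Tyrobp in the NK list. CD8 T cells also express Ctla4 and Eomes, but which cells the sums came from was not tested. In the same order, the CD8 T identity list had 3136 and 3352 CPM and the B list 175 and 171. The part of these sums in the differences between sets was not tested.

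By a fixed measure of likeness, the root mean square difference of centred log2 CPM over 8 libraries, the genes nearest to Pycr1 were Asns (asparagine synthetase, 0.15), Pck2 (mitochondrial phosphoenolpyruvate carboxykinase, 0.21) and Cldn12 (a claudin, 0.25). The genes nearest to Gpt2 were Chac1 (a glutathione-degrading enzyme, 0.19), Slc6a9 (a glycine transporter, 0.22) and Grb7 (an adaptor protein, 0.23). Asns had 32.8 and 49.7 CPM with PBS in codes 1 and 7, 144 and 92.0 CPM with PBS in codes 10 and 13, and 138 to 173 CPM in the 4 formate libraries. That is the order seen for Pycr1 and Gpt2, with a wide gap in one set and a narrow one in the other. Asns was picked for its likeness to Pycr1, so the shared order follows from the selection. For Prodh the nearest were Trmt12 (0.06), Ifrd2 (0.06) and Pinx1 (0.07). All 8 points of each profile share their libraries and depth with every other gene.

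A list of 24 genes, Atf4 and targets of its product, was set beside the 8 enzymes, none of which it holds. The list was chosen with earlier results of these data known. Its values are a description and not independent support for the pattern of Pycr1 and Gpt2. The log2 difference was more positive in codes 1 to 8 for 24 of 24, with a median of 0.62 there and -0.02 in codes 10 to 14, where all tested genes had 0.01 and -0.02. In PBS libraries 21 of the 24 were higher in codes 10 to 14 than in codes 1 to 8, as were 51.7% of all tested genes. Of the 24, edgeR called 1 without the block and 3 with it, all higher, where the block fit called 12.9% of all tested genes (5.35% higher). Cth, which makes cysteine, had 12.9 to 18.2 CPM with PBS and 34.5 to 40.8 with formate (log2 change 1.33, SE 0.12, edgeR adjusted p = 0.0212 unpaired). This unpaired call was lost in 7 of 8 fits that left out 1 library, and held without the PBS library of code 10 (1.43). Stc2, a secreted glycoprotein gene, had group means of 2.15 ± 1.37 CPM with PBS and 5.07 ± 2.52 with formate. It rose in the fit with the block (1.29, SE 0.16, edgeR adjusted p = 0.000782, and 0.998 unpaired). Atf3, a stress-induced transcription factor, went from 33.98 ± 2.87 to 45.4 ± 2.03 CPM with no overlap (0.42, SE 0.06, edgeR adjusted p = 0.00197; unpaired 0.873). The transcript of Atf4 itself had 368, 458, 539 and 545 CPM with PBS and 518, 533, 460 and 554 CPM with formate, and it did not pass (edgeR adjusted p = 0.608 with the block).

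**Figure D4:**
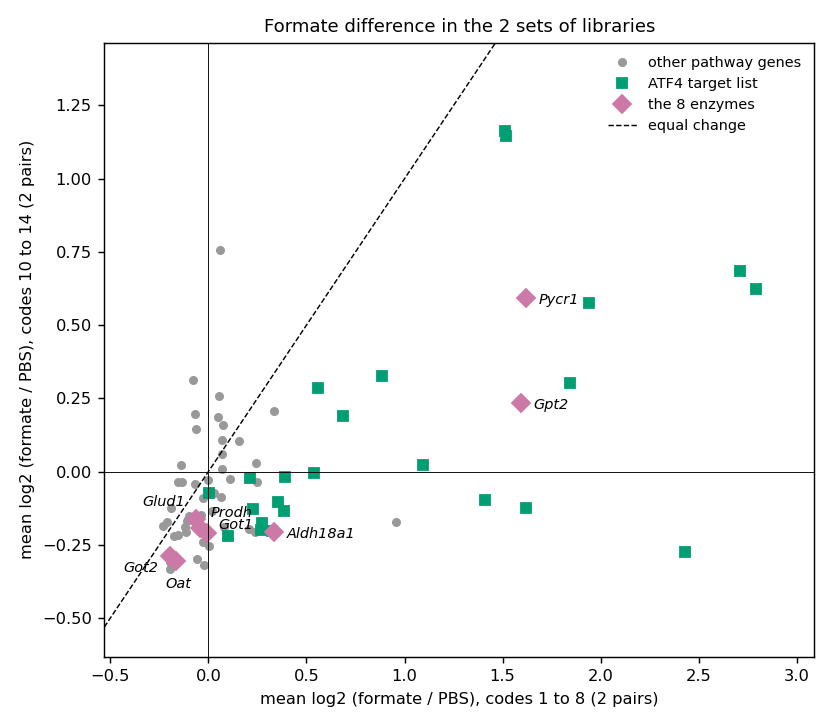
Mean log2 ratio of formate to PBS over the 2 pairs of codes 1 to 8 (horizontal axis) and the 2 pairs of codes 10 to 14 (vertical axis) for the 8 enzymes (diamonds), 24 ATF4 pathway genes (squares) and the other tested pathway genes (circles), with a dashed line at equal change; the axes have different scales. All 8 diamonds and 24 squares lie below the dashed line, and Pycr1 and Gpt2 lie far to the right of the other 6 enzymes.

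The other genes of these pathways were drawn from 5 lists with 66 names, of which 53 were tested. These lists, and the MYC list below, were also chosen with earlier results of these data known. None passed in the unpaired edgeR fit, where 2 of the 53 and 634 of all 13299 tested genes had a raw p under 0.05. Unpaired DESeq2 called 0 of the 53. With the block in edgeR, 1 rose, 7 fell and 45 did not pass. These 8 of 53 lie near the 12.9% of all tested genes called with the block. Their median log2 change with the block was -0.06. Of 9 tested genes of proline synthesis, breakdown and hydroxylation 1 fell: Pepd, which releases proline from dipeptides, went from 35.4 ± 5.61 to 30.9 ± 5.18 CPM (-0.20, SE 0.06, edgeR adjusted p = 0.0362; unpaired 0.998). Pycr3, a paralog of Pycr1 named here for that relation, did not pass, with 46.6 ± 10.2 CPM with PBS and 43.5 ± 7.95 with formate (edgeR adjusted p = 0.297 with the block). Its mean log2 change in codes 1 to 8 was -0.15, where Pycr1 had 1.62. That is the set in which Pycr1 changed most, with 0.59 in codes 10 to 14. Pycr3 was named after its values were seen.

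Of 15 tested genes that make or use glutamate and glutamine 3 fell with the block and 12 did not pass, where 7.52% of all tested genes fell. They were Gmps of guanine synthesis (204 ± 16.9 to 172 ± 21.2 CPM, log2 change -0.25, edgeR adjusted p = 0.00443), Ppat of purine synthesis (-0.19, 0.0138) and Cad of pyrimidine synthesis (-0.21, 0.0164). Each had an unpaired adjusted p of 0.998. With GC offsets in the block fit the Gmps change was -0.42. The Cad call was lost in 4 of 9 settings with the block, and the Ppat call in 3 of 9. Gpt, the cytosolic relative of Gpt2, named for that relation, was at 4.31 ± 0.560 and 4.49 ± 0.935 CPM (log2 change 0.05, edgeR adjusted p = 0.855 with the block).

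Of 7 tested genes of the ornithine, urea cycle and polyamine branch linked to Oat, none passed with the block. In that edgeR fit 5 of the 7 had a raw p under 0.05, as had 3762 of all 13299 tested genes. DESeq2 with the block called 1 of the 7 and 1573 of all tested genes. Named for the smallest unpaired p were Azin1, an inhibitor of the ornithine decarboxylase antizyme (0.13, SE 0.04, edgeR adjusted p = 0.0603 with the block), and Sms, spermine synthase (0.12, SE 0.04, 0.0895). Azin1 was called in 2 of 9 settings with the block and Sms in 1 of 9, while GC offsets gave changes of 0.0068 and 0.074. Of 14 tested transporter genes 1 rose (5.35% of all tested genes): Slc1a5, which carries glutamine, had 354, 325, 259 and 311 CPM with PBS and 450, 406, 296 and 363 with formate (0.27, SE 0.05, edgeR adjusted p = 0.00313; unpaired 0.998). It was higher in 4 of 4 pairs, although the groups overlapped. Of 8 tested genes of the malate, pyruvate and 2-oxoglutarate steps next to Got1 and Got2, 3 fell and 5 did not pass (7.52% of all tested genes fell). They were Me2, the mitochondrial malic enzyme (-0.18, edgeR adjusted p = 0.0129), Ogdh of the 2-oxoglutarate dehydrogenase complex (-0.15, 0.0322) and Mdh2, the mitochondrial malate dehydrogenase that works with Got2 (-0.14, 0.0488), each with an unpaired adjusted p of 0.998. The Me2 call held in 6 of 9 settings with the block, and the Ogdh, Mdh2 and Pepd calls in 2 of 9 each. In a list of 8 genes of the MYC network 1 was called with the block, a share near the 12.9% of all tested genes: Max, the dimer partner of MYC (147 ± 13.7 to 130 ± 9.26 CPM, -0.17, edgeR adjusted p = 0.0170; unpaired 0.998), which held in 5 of 9 settings.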

How the data were processed

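RNA was sequenced from 8 libraries (4 PBS, 4 formate). The table deposited by the authors holds expected counts for genes, estimated from the reads and neither normalised nor pooled. The submitters' processing notes list Trimmomatic, kallisto and MultiQC, with builds mm10 and GRCm38. Libraries were stranded and poly(A)-selected, per the labels' protocols; the annotation release and the strand option of the counting were not given in the sources used here. Values were rounded to whole numbers (56.7% of non-zero values were not whole). 3 counts in the smallest library equal 0.102 CPM. Rows without a symbol, 8884 of them, held 1.22% to 1.65% of a library and were kept by identifier.

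The main test was that of edgeR 4.0.16, run under R 4.3.3 (TMM, filterByExpr, robust quasi-likelihood, Benjamini-Hochberg over all 13299 tested genes, adjusted p under 0.05), and scripts were tested on simulated data. CPM are TMM-normalised. Standard errors are the log2 change divided by the root of F. DESeq2 1.42.0, other scalings, GC offsets, no filter, left-out libraries and pairs, and code sets were alternatives. Neighbouring title codes were treated as pairs because each pair of codes holds 1 PBS and 1 formate library. Deviations from the group means correlated by 0.653, 0.369, 0.656 and 0.370 in the 4 pairs. These deviations include the split between the sets, so they cannot tell neighbours from other libraries of the same set. No label states separate cultures or animals, so p-values reflect spread among these samples only, which could be technical. Coordinates and lengths are from GENCODE M21 (GRCm38), promoters from RefSeq.

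The 8 genes and all lists were chosen with earlier results of these data known. Named beside the 8 genes are list genes called in the unpaired fit, up to 6 per list called with the block, the 2 smallest p where a list had none, and 3 nearest profiles for each of the 3 most variable enzymes, without Gm and Rik symbols; Atf4, Gpt and Pycr3 were named after their values were seen. Some genes are not reported here. Of the listed names, Pycrl, Ctps, Glud2, Pc, Trac and Hbb-bs matched no row. Marker sums (CPM, PBS and formate means) were 3293 and 3195 for CD8 T identity, 180 and 219 for CD4 T (a list with Ctla4, which activated CD8 T cells also express), 177 and 169 for B, 68.9 and 58.5 for NK (a list with Eomes, also expressed by CD8 T cells), 5.02 and 5.92 for myeloid, 0.130 and 0.279 for erythroid and 20.2 and 20.8 for stromal markers.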

Additional observations from a re-analysis of the deposited data

Results flagged for a closer look

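The edgeR fit of the interaction with pairs as a block called 2 of the 8 enzymes, which is a description, since the per-pair differences were known when the genes were chosen. Without the block, 0 of 13299 interactions were called, and with RLE size factors in the block fit Aldh18a1 was not called. The change in codes 10 to 14 minus that in codes 1 to 8 was -1.36 log2 units for Gpt2 (SE 0.15) and -0.54 for Aldh18a1 (SE 0.08). Gpt2 had PBS means of 16.9 CPM in codes 1 to 8 and 39.3 in codes 10 to 14, and formate means of 50.8 and 46.2 CPM. Aldh18a1, in the same order, had PBS means of 176 and 206 CPM and formate means of 222 and 179 CPM. Of 44 groups of 4 libraries examined for a library far from the others (22 genes), 0 held one.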

How the results depend on the processing

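The replicate block raised the number of genes called from 1 to 1712, the interactions from 0 to 9 and the companion list genes from 0 to 8. Without codes 1 and 2, 7 and 8, 10 and 11 or 13 and 14 the block gave 351, 722, 1372 and 502 genes (companion genes 2, 3, 9 and 2). With the block and library size only, upper quartile scaling, DESeq2 or GC offsets it gave 1586, 1568, 1573 and 1313 (companion genes 8, 6, 13 and 4). Unpaired DESeq2 called 21 genes, each set alone 0, and leaving out 1 library 0 to 1 (companion genes 0 to 0). RLE, upper quartile and library size scaling, no filter and the set as covariate kept 1 call. Added after seeing the data, the interaction with the block gave 6 (RLE), 13 (library size only) and 9 (GC offsets); Aldh18a1 had -0.51 and was not called with RLE, and Gpt2 was called in all 3. As a description of chosen genes, changes with the block ran from -0.26 to -0.20 for Oat and from -0.26 to -0.21 for Got2 over 9 settings. Neither was called unpaired or with the library set as covariate. Over left-out libraries, unpaired changes ran from 0.70 to 1.38 for Pycr1 and from 0.57 to 1.05 for Gpt2. Direction reversed for Aldh18a1 in the block without codes 1 and 2 (-0.025) or 7 and 8 (-0.016) and within codes 10 to 14 (-0.19). Over left-out libraries, Prodh ran from -0.241 to 0.0643 (positive without code 7 or code 11) and Cad from -0.444 to 0.0153 (positive without code 1); the cause was not tested. The Cth call was lost without 7 of the 8 libraries, each in turn (1.25 to 1.43 over all 8). Prodh had the fewest counts of the 8 enzymes, at 32 to 79 per library.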
